A study of Mus musculus with 12 samples.

Results

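Dcn, Lum, Fbn1, Mfap5, Fap, Gsn and Pdgfrb are 7 genes that are commonly read as fibroblast genes and that are not collagens. They were taken by gene symbol from a table of 7318 genes, and all 7 were found and passed the filter on low counts in every comparison. Fibroblasts make and maintain the extracellular matrix of the mammary stroma, the tissue that surrounds the epithelial ducts. Decorin (Dcn) and lumican (Lum) are small leucine-rich proteoglycans that bind collagen fibrils, fibrillin-1 (Fbn1) and the microfibril-associated protein Mfap5 build the microfibrils of elastic fibres, and gelsolin (Gsn) severs and caps actin filaments. Fap is a cell surface prolyl protease of activated fibroblasts, and Pdgfrb is a receptor tyrosine kinase for platelet-derived growth factors. None of the 7 is a fibroblast gene alone. Pdgfrb is also a marker of pericytes, the mural cells of small vessels, and Gsn is made by many cell types, epithelium included.

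The libraries came from the mammary glands of female FVB/N mice aged 4 weeks that carried MMTV-Wnt1 and MMTV-iFgfr1, 2 transgenes driven by a viral promoter that is active in mammary epithelium, so all groups have raised WNT signalling. Mice received vehicle or AP20187, a dimerizer that activates the inducible FGF receptor 1 (iFGFR1), for 6 h, and no group received AP20187 without iFGFR1. Cells were released with collagenase (1 mg/ml, 2 h at 37 °C) and enriched for epithelium by short spins. No sort is stated, which leaves stromal cells in the pellets. Cycloheximide, at 100 µg/ml, was used for all libraries. Each of 4 groups held 3 libraries: RNA with vehicle, RNA with AP20187, ribosome footprints with vehicle and ribosome footprints with AP20187. Footprints are the mRNA fragments that ribosomes protect from nuclease, so their number reads ribosome occupancy. Neither transgene is directed to fibroblasts, and the labels do not say how many animals went into a library, so replicate spread may be partly technical and p-values refer to that spread alone.

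Over the listed genes the RNA libraries held 94513818 to 251874393 counts and the footprint libraries 1772969 to 11018709. A floor of 3 counts stood at no more than 0.0322 CPM (counts scaled to library size, with TMM factors) in RNA and between 0.282 and 1.64 CPM in footprints. The 7 genes together took 0.141% to 0.287% of all counts in the vehicle RNA libraries and 0.038% to 0.0697% in the AP20187 RNA libraries. In footprints their share was 0.318% to 0.731% with vehicle and 0.0529% to 0.165% with AP20187. In both assays vehicle library 3 had the highest share of the 6 libraries and AP20187 library 3 the lowest.

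Levels can be compared between genes only per length, and per kilobase of the longest coding transcript gelsolin and decorin were the most abundant of the 7 in vehicle RNA. Gsn stood at 353 ± 193 and Dcn at 352 ± 147 CPM per kilobase (mean ± SD, n = 3), which did not differ beyond their spread. Lum followed at 65.7 ± 19.6. Below it came Mfap5 at 15.0 ± 4.71, Pdgfrb at 14.2 ± 1.74 and Fbn1 at 11.4 ± 3.22 CPM per kilobase, whose ranges overlapped. Over all annotated exons Mfap5, at 6.30 ± 1.97, had a lower mean than both others. Its highest library there, at 8.56, lay below the lowest Pdgfrb library, at 12.4, but above the lowest Fbn1 library, at 8.47. By transcript length Fap was lowest at 5.45 ± 2.17, with its highest library, at 7.96, below the lowest Fbn1 library, at 8.58. The gap between Gsn and Dcn depends on the length used, since over all annotated exons, which for Dcn include retained introns, the means were 297 ± 162 for Gsn and 106 ± 44.2 for Dcn. In AP20187 RNA the order by transcript length was Gsn at 80.3 ± 23.3, Dcn at 58.5 ± 30.5, Lum at 21.0 ± 3.85, Pdgfrb at 8.96 ± 2.65, Fbn1 at 5.84 ± 1.44, Mfap5 at 5.49 ± 0.345 and Fap at 2.57 ± 0.908 CPM per kilobase. The ranges of Gsn and Dcn, of Pdgfrb and Fbn1, and of Fbn1 and Mfap5 overlapped, while every Mfap5 library stood below every Pdgfrb library. Such ranges, with vehicle and with AP20187, run over libraries and do not compare genes within a library.

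With AP20187, RNA of 5 of the 7 genes fell, namely Dcn, Gsn, Lum, Mfap5 and Fbn1, and Fap and Pdgfrb were lower without passing the threshold. At an edgeR adjusted p under 0.05 (Benjamini-Hochberg), 13.9% of the 7314 genes tested were lower and 12.4% higher. In each of the 7 genes all 3 AP20187 libraries lay below all 3 vehicle libraries, which held for 23.1% of all genes. The median log2 fold change of the 7 was -1.45, beside 0.01 over all genes. In these epithelium-enriched pellets, fewer fibroblasts, less RNA per fibroblast and changes in other cells that express these genes cannot be told apart.

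Both proteoglycan genes fell. Dcn, on chromosome 10 at 97479609 to 97518143 on the plus strand of GRCm38, stood at 520, 425 and 911 CPM in vehicle libraries 1, 2 and 3 and at 71.8, 165 and 72.2 CPM in AP20187 libraries 1, 2 and 3. The lowest vehicle value was thus more than double the highest AP20187 value. The change was -2.59 ± 0.41 on the log2 scale (SE), a 6.01-fold lower level (adjusted p = 0.0075), and only 0.465% of the genes tested had a lower log2 fold change. Lum lies on the same chromosome and strand, at 97565128 to 97572703, 46984 bases past the end of Dcn. It stood at 142, 125 and 216 CPM with vehicle and at 43.8, 61.9 and 48.4 CPM with AP20187. Its change was -1.65 ± 0.23, a 3.13-fold lower level (adjusted p = 0.00628), and the 3 AP20187 values lay close together. The neighbours Kera and Epyc, which code for proteoglycans of the same family, were not analysed here.

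Both microfibril genes fell. Fbn1, on the minus strand of chromosome 2 at 125300594 to 125507993, stood at 127, 103 and 178 CPM with vehicle and at 67.1, 88.4 and 54.3 CPM with AP20187. The gap between the groups was narrow, from 88.4 to 103 CPM. The change was -0.96 ± 0.24 (adjusted p = 0.0254), a call that leaving out vehicle library 1 (adjusted p = 0.0601), vehicle library 3 (0.0965) or AP20187 library 1 (0.0765) removed and leaving out the other RNA libraries did not. Mfap5, on the plus strand of chromosome 6 at 122505845 to 122529290, stood at 19.5, 17.6 and 30.7 CPM with vehicle and at 8.60, 8.54 and 7.68 CPM with AP20187. The AP20187 libraries were nearly equal, and the change was -1.45 ± 0.24, a 2.73-fold lower level (adjusted p = 0.0082). Fbn1 overlaps a gene on the opposite strand and Gsn one on the same strand, neither of them in the table, and whether counting used strand is not given in the sources used here.

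Gsn, on the plus strand of chromosome 2 at 35256380 to 35307892, stood at 687, 596 and 1526 CPM in the vehicle RNA libraries and at 193, 282 and 163 CPM with AP20187. Vehicle library 3 stood far above the other vehicle libraries. The change was -2.14 ± 0.38, a 4.40-fold lower level (adjusted p = 0.00927), and without RNA vehicle 3 it was -1.59 (adjusted p = 0.0200). Gsn makes a secreted and a cytoplasmic protein from alternative first exons, and counts per gene symbol add them up, so the fall cannot be assigned to either. Of the 7 genes, 2 matched by symbol to the RefSeq promoter table (GRCm38.p6), Gsn with 3 start sites and Fbn1 with 1. The 250 bases before each Gsn start are shown 5′ to 3′ because the fall was measured over all of its transcripts, with GC boxes (GGGCGG) and CCAAT boxes (CCAAT) of either strand in capitals.
Gsn chr2:35256109-35256358: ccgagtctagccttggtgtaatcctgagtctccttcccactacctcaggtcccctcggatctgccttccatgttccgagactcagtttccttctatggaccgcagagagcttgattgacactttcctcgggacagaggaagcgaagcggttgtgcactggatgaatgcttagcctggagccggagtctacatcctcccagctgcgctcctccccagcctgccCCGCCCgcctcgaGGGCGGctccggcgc
Gsn chr2:35266494-35266743: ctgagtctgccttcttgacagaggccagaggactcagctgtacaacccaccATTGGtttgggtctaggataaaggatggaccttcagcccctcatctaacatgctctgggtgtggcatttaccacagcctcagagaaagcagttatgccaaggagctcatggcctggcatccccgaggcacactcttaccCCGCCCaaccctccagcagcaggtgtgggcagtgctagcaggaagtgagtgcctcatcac
Gsn chr2:35282130-35282379: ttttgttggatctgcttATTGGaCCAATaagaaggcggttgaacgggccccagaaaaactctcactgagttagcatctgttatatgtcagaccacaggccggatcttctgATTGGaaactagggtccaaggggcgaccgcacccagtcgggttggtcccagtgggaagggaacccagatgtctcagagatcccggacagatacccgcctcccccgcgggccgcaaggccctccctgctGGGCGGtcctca
GC boxes numbered 2, 1 and 1 in the windows in this order and CCAAT boxes 0, 1 and 3. Among 32851 windows of the same length, 32.7% held a GC box and 33.8% a CCAAT box. The TEAD motif, CATTCC, was found in 12.6% of all windows and had no match in the 3 shown. The motif TATAAA was found in 12.4% and had no match either. Nor had the AP-1 motif, TGANTCA with N for any base, which was found in 6.75%. These motif counts describe letters in these windows and were not tested against the measurements.

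The 2 cell surface genes did not pass in RNA. Fap, on the minus strand of chromosome 2 at 62500943 to 62574075, stood at 11.8, 11.3 and 21.9 CPM with vehicle and at 9.87, 5.08 and 6.26 CPM with AP20187. Library AP20187 1 was close to the lower vehicle libraries, and the change was -1.08 ± 0.35 (adjusted p = 0.0516). Pdgfrb, on the plus strand of chromosome 18 at 61045150 to 61085061, stood at 75.3, 68.1 and 86.8 CPM with vehicle and at 48.6, 62.9 and 34.2 CPM with AP20187. Library AP20187 2 was only slightly below vehicle library 2, and the change was -0.66 ± 0.22 (adjusted p = 0.0588). Without RNA AP20187 2 it was -0.88 (adjusted p = 0.0146). With DESeq2 both Fap (adjusted p = 0.0101) and Pdgfrb (0.0221) passed, and with limma voom Pdgfrb did (0.0449). Pdgfrb ranked least extreme of the 7, with 12.1% of all genes having a lower log2 fold change.

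**Figure D1:**
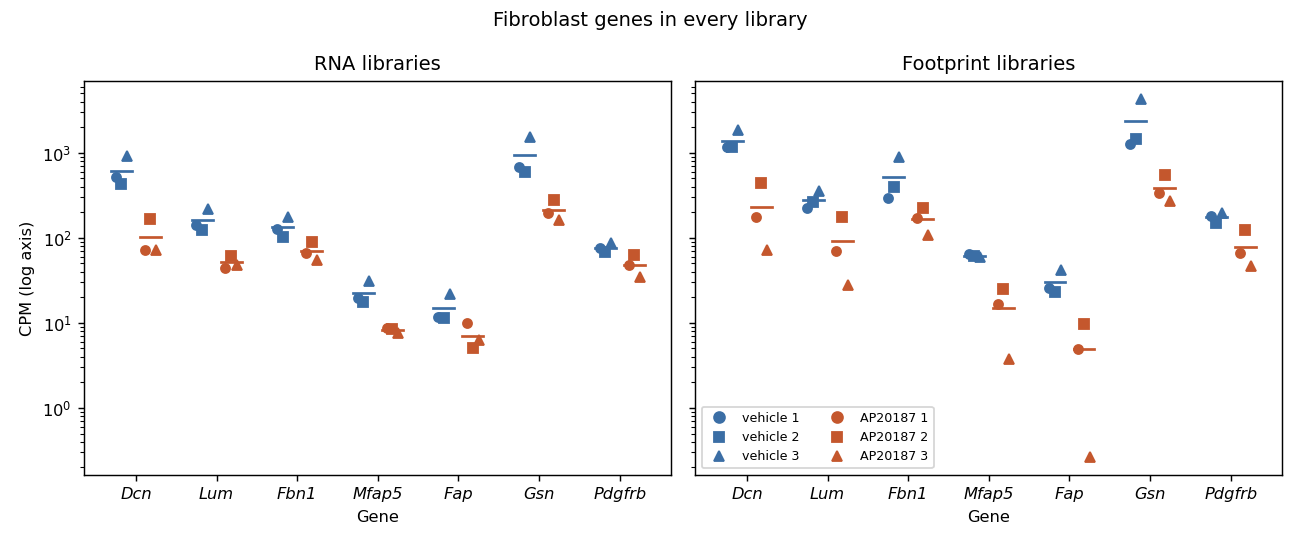
CPM on a log axis of the 7 genes in each RNA library (left) and footprint library (right), with vehicle in blue and AP20187 in orange, symbols for the library number and bars for group means. The 3 AP20187 libraries lie below the 3 vehicle libraries for every gene in both panels, and the lowest point is Fap in footprint library AP20187 3, at 0.266 CPM.

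Most endothelial, adipocyte and Schwann cell markers fell as these genes did, and most luminal markers and 2 of only 3 macrophage markers rose. Over all genes tested in RNA, 13.9% were lower and 12.4% higher. The 8 other measured genes of a fibroblast marker list had 7 that fell and a median of -1.45. Col1a1 and Col6a3, collagen chains of the same stroma, had log2 changes of -1.51 and -1.39 and fell. Of 6 endothelial markers, Eng of the TGF-beta list among them, all fell, with a summed level of 692 to 966 CPM with vehicle and 368 to 423 CPM with AP20187. Of 6 adipocyte markers 4 fell and 2 did not pass, with sums of 265 to 506 and 49.5 to 105 CPM. Of 8 pericyte and smooth muscle markers other than Pdgfrb 4 fell, namely Des, Acta2, Tagln and Myh11. The 4 that did not pass were Mcam, Notch3, Abcc9 and Cnn1, with log2 changes of 0.58, -0.59, -0.35 and -0.48. With Pdgfrb included, the sums were 2128 to 2736 CPM with vehicle and 994 to 1574 CPM with AP20187. Of 7 Schwann cell markers 5 fell and Sox10, which mammary progenitors also express, rose. The Schwann sums, of 400 to 488 CPM with vehicle and 543 to 827 CPM with AP20187, therefore went the other way. Of 8 luminal epithelial markers 6 rose and Krt19 fell, with sums of 4119 to 5144 and 6984 to 9357 CPM, so defining markers of the labelled epithelium were present in every library. Of 11 basal markers, which share Acta2, Myh11 and Cnn1 with the mural list, 4 fell and 1 rose, with sums of 6438 to 7039 and 4399 to 7014 CPM. Of 3 macrophage markers 2 rose, with sums of 293 to 771 and 1083 to 1390 CPM. Most of the macrophage sum was Cd14, with means of 464 CPM with vehicle and 1242 CPM with AP20187. Which cells expressed Cd14 was not tested. Itgam, at 9.10 and 18.3 CPM, also rose, and Cd68, at 23.1 and 17.4 CPM, did not pass. No measured marker was at 0 in any RNA library, and the part of these shifts in the falls of the 7 genes was not tested. The counts that fell were lower by over 1.5 times without RNA vehicle 3 (3 endothelial, 2 adipocyte, 2 mural and 2 basal genes), without RNA AP20187 1 (2 adipocyte, 2 mural and 2 basal genes), without RNA vehicle 1 (2 mural and 2 basal genes) and without RNA vehicle 2 (2 mural genes). Among all genes tested 1013 were lower in the fit of all RNA libraries and 291, 394, 410 and 997 without these libraries in this order. The counts that rose were 2 luminal, 0 basal and 0 macrophage genes without RNA vehicle 3 and 0 basal and 0 macrophage genes without RNA vehicle 1. Without RNA AP20187 1, 0 macrophage genes rose, 2 basal genes rose, as they did without RNA vehicle 2 or RNA AP20187 3, 1 pericyte or muscle gene rose without RNA AP20187 2, and 2 luminal genes fell without RNA AP20187 2.

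The RNA levels of the 7 genes relative to each other differed between the treatments for 4 genes without overlap, in a design too small to call it. In each library the log2 CPM of a gene was set against the mean log2 CPM of the other 6. In RNA, Dcn stood 2.76 ± 0.13 log2 units above the others with vehicle and 1.43 ± 0.55 above them with AP20187 (SD, n = 3 each), a difference of -1.33. Gsn went from 3.39 ± 0.32 to 2.74 ± 0.17, a difference of -0.65. In the other direction, Pdgfrb went from -0.67 ± 0.34 to 0.25 ± 0.21 and Fbn1 from 0.25 ± 0.11 to 0.88 ± 0.10, differences of 0.92 and 0.63. For these 4 genes the groups did not overlap. Because each gene is set against the others, lower ratios of some genes force higher ratios of others. The 2 directions are therefore not separate results. The exact 2-sided permutation test gave p = 0.1 for each, the smallest p that 3 against 3 libraries allow, and 0.175 after adjustment over the 7 genes, so no difference could pass. Of all genes set against the mean of the 7 in the same way, 91.4% had groups that did not overlap, and most of those genes did not fall. Lum, Mfap5 and Fap overlapped, with differences of -0.16 (p = 0.4), 0.09 (p = 0.6) and 0.49 (p = 0.4) by the same exact permutation test. Single libraries decided this overlap: without RNA AP20187 2 the differences of Fap, 0.89, and Mfap5, 0.23, and without RNA AP20187 3 that of Lum, -0.27, came without overlap, while without RNA AP20187 1 that of Lum was -0.04 and that of Fap 0.16, with overlap. In RNA set against Col1a1 and Col1a2 in place of the other genes, Dcn differed by -1.10, Fbn1 by 0.57 and Pdgfrb by 0.83, again without overlap, and Gsn by -0.52 with overlap. In footprints the ratio to the other 6 differed without overlap for Dcn, by -0.75, Fap, by -1.36, and Pdgfrb, by 1.20, each at p = 0.1 (0.233 adjusted) by the exact permutation test, and 86.6% of all genes did not overlap against the mean of the 7. The value for Fap includes its library of 1 count. Lum, Fbn1, Mfap5 and Gsn overlapped in footprints. Against Col1a1 and Col1a2 in footprints, Dcn (-0.81), Fap (-1.33) and Pdgfrb (0.87) overlapped and Fbn1 (0.59) did not.

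**Figure D2:**
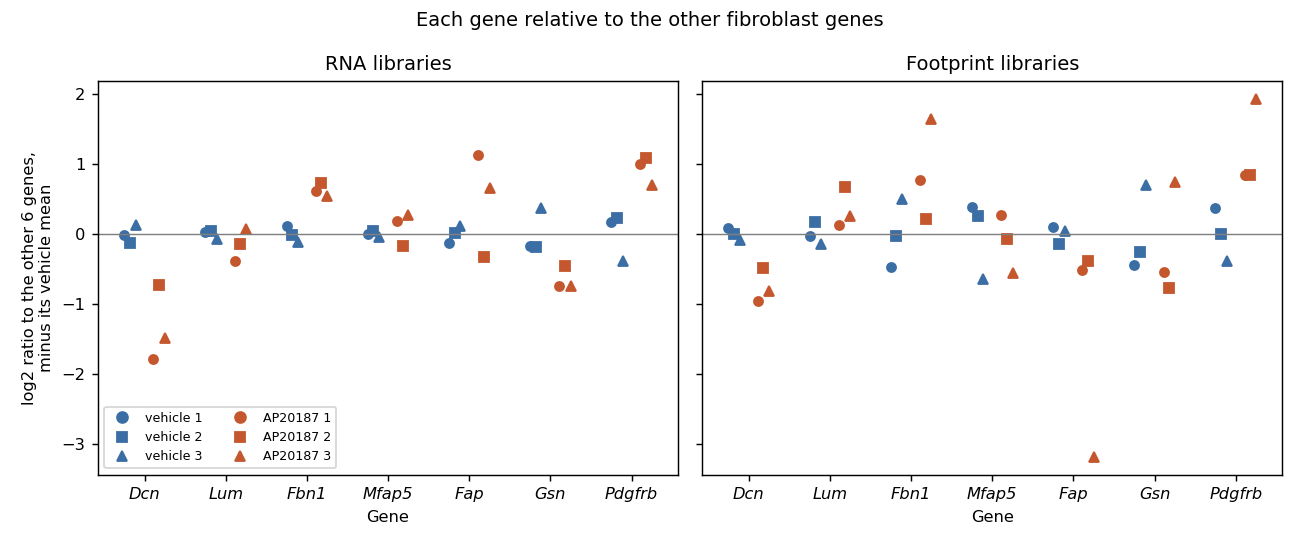
The log2 ratio of each gene to the mean of the other 6, as a difference from its own vehicle mean, in each RNA library (left) and footprint library (right), with vehicle in blue, AP20187 in orange and symbols for the library number. In RNA the AP20187 points of Dcn and Gsn lie below, and those of Fbn1 and Pdgfrb above, all vehicle points of the same gene.

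In ribosome footprints Dcn and Gsn fell with AP20187, and the other 5 genes were lower without passing the threshold. Of the 7041 genes tested 1.6% were lower and 0.937% higher at an adjusted p under 0.05 with edgeR. All 7 genes had an unadjusted p under 0.05, and in all 7 the AP20187 libraries lay below the vehicle libraries, as for 11.8% of all genes. The median log2 fold change of the 7 was -2.02, beside 0.03 over all genes. With DESeq2 all 7 passed, where 315 of the 7041 genes were lower. With limma voom 3 passed, Mfap5 (adjusted p = 0.0334) beside Dcn and Gsn, where 155 of the 7041 genes were lower.

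Footprints of Dcn stood at 1185, 1163 and 1830 CPM in vehicle libraries 1, 2 and 3 and at 178, 437 and 72.5 CPM with AP20187. All AP20187 libraries lay far below the vehicle libraries, and the change was -2.61 ± 0.55 (adjusted p = 0.0373). Gsn footprints stood at 1279, 1470 and 4301 CPM with vehicle and at 337, 544 and 271 CPM with AP20187, a change of -2.62 ± 0.49 (adjusted p = 0.0244). Vehicle library 3 again stood far above the others. Without footprint vehicle 1, vehicle 2, vehicle 3 or AP20187 1 the adjusted p of Dcn was 0.0897, 0.109, 0.1002 and 0.132, that of Gsn 0.0566, 0.0689, 0.0621 and 0.0938, and 0 of the 7 genes passed. In each of these fits 0 genes of the whole table were lower at an adjusted p under 0.05. Without footprint vehicle 3 the change of Gsn was -1.84, and without footprint AP20187 2 that of Dcn was -3.47. Without footprint AP20187 2 Lum, at -2.52, Mfap5 and Pdgfrb passed as well, with adjusted p of 0.0215, 0.0436 and 0.0283, and without footprint AP20187 3 Mfap5 did (0.0475).

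Among the genes that did not pass, footprints of Lum were 226, 263 and 359 CPM with vehicle and 69.1, 177 and 27.9 CPM with AP20187, a change of -1.64 ± 0.53 (adjusted p = 0.142). Fbn1 stood at 292, 391 and 884 CPM with vehicle and at 170, 226 and 107 CPM with AP20187, a change of -1.64 ± 0.43 (adjusted p = 0.0747), which was -1.03 (0.222) without footprint vehicle 3. Mfap5 stood at 64.1, 61.1 and 59.4 CPM with vehicle and at 16.6, 25.2 and 3.72 CPM with AP20187, a change of -2.02 ± 0.53 (adjusted p = 0.0783). The vehicle libraries of Mfap5 agreed closely while its AP20187 libraries, which rest on 177, 82 and 14 counts, did not. Pdgfrb stood at 180, 149 and 195 CPM with vehicle and at 65.9, 122 and 47.3 CPM with AP20187, a change of -1.16 ± 0.34 (adjusted p = 0.109). Fap stood at 25.7, 22.9 and 42.2 CPM with vehicle and at 4.88, 9.82 and 0.266 CPM with AP20187, a change of -2.62 ± 0.78 (adjusted p = 0.109), which was -3.40 (0.0705) without footprint AP20187 2. Its value in AP20187 library 3 rests on 1 count, which is 0.00877 of the vehicle mean with an exact 95% Poisson interval of 2.22e-04 to 0.0489, and is below the 3-count floor of 0.796 CPM of that library. For all 7 genes AP20187 library 2 was the highest and library 3 the lowest of the AP20187 footprint libraries.

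**Figure D3:**
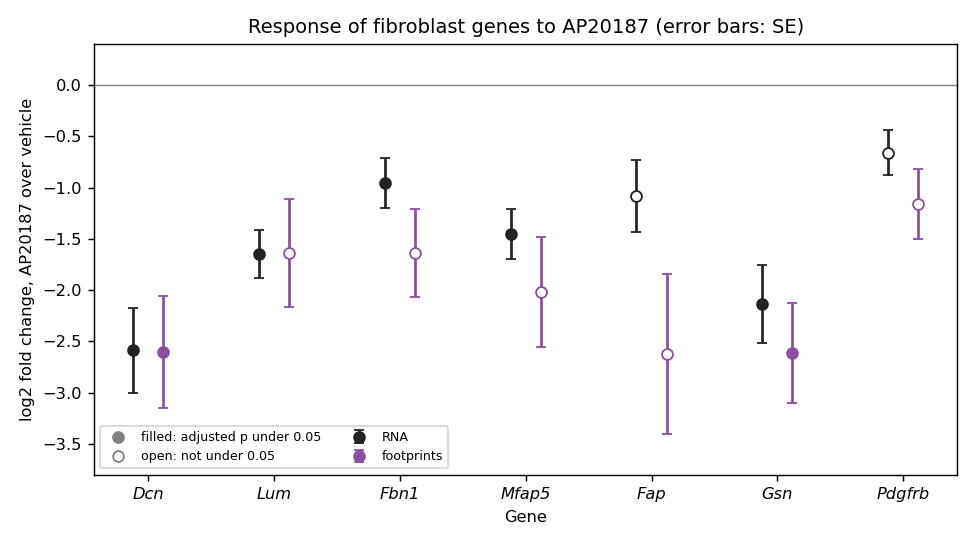
Log2 fold change of AP20187 over vehicle for the 7 genes in RNA (black) and footprints (purple), with bars of 1 SE and filled symbols where the edgeR adjusted p was under 0.05. All 14 estimates lie below 0, from -0.66 for Pdgfrb RNA to -2.62 for Fap footprints, and the footprint bars are wider than the RNA bars.

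The fall in footprints was not distinguishable from the fall in RNA. The change in translational efficiency, the interaction term in a model of all 12 libraries, passed for 0 of the 7 genes with edgeR and for 0% of all 7315 genes. DESeq2 and limma voom each called 0 of the 7, and 0 had an unadjusted edgeR p below 0.05. Estimates were near 0 for Dcn, at -0.08 ± 0.73, and Lum, at -0.05 ± 0.64 (log2, SE). They were lower for Gsn at -0.53 ± 0.66, Pdgfrb at -0.55 ± 0.42, Mfap5 at -0.63 ± 0.61, Fbn1 at -0.74 ± 0.54 and Fap at -1.62 ± 0.86, and the adjusted p was at least 0.988 for each. Errors of this size leave room for changes that this test could not detect, so equal change in both assays was not shown. The sign for Dcn and Lum turned without RNA vehicle 1 (0.03 and 0.03), RNA vehicle 2 (0.14 and 0.10), RNA AP20187 2 (0.42 and 0.09), footprint vehicle 3 (0.22 and 0.21), footprint AP20187 1 (0.13 and 0.17) and footprint AP20187 3 (0.39 and 0.42), and that of Gsn without footprint vehicle 3 (0.29), where the estimate for Fbn1 was -0.07. Without footprint AP20187 2 the estimates for Dcn, Lum and Fap were -0.92, -0.93 and -2.33.

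In vehicle glands the 7 genes had more footprints for their RNA than most genes. With library sizes scaled over all 12 libraries, footprint CPM over RNA CPM in vehicle libraries 1, 2 and 3 was 2.55, 4.19 and 5.55 for Fbn1 and 2.65, 2.40 and 2.51 for Pdgfrb. Pdgfrb was steady over the libraries and Fbn1 was not. Mfap5 had ratios of 3.63, 3.81 and 2.16, Gsn of 2.06, 2.71 and 3.15, and Dcn of 2.52, 3.01 and 2.25. Lum had 1.76, 2.31 and 1.86 and Fap 2.41, 2.23 and 2.15. In the model over all libraries footprints exceeded RNA by 2.10 ± 0.40 (log2, SE) for Fbn1 (adjusted p = 6.20e-04), by 1.34 ± 0.30 for Pdgfrb (0.00235), by 1.59 ± 0.44 for Mfap5 (0.00789), by 1.48 ± 0.48 for Gsn (0.019) and by 1.32 ± 0.52 for Dcn (0.049). Lum, at 0.96 ± 0.46 (adjusted p = 0.0951), and Fap, at 1.18 ± 0.59 (0.114), did not pass. These 5 of 7 compare with 26.7% of all genes that were higher and 24.2% that were lower by this test, and between 79.2% of all genes, for Lum, and 96.3%, for Fbn1, had a lower ratio. The call of Gsn was lost without RNA vehicle 1 (adjusted p = 0.0764), RNA vehicle 2 (0.0776) or footprint vehicle 3 (0.202, with an excess of 0.63). Without footprint vehicle 3 the excess of Fbn1 was 1.41 (0.00272).

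The call of Dcn held without RNA vehicle 3, RNA AP20187 2, footprint AP20187 2 or footprint AP20187 3. It was lost without RNA vehicle 1 (adjusted p = 0.135), RNA vehicle 2 (0.154), RNA AP20187 1 (0.053), RNA AP20187 3 (0.0554), footprint vehicle 1 (0.081), footprint vehicle 2 (0.0806), footprint vehicle 3 (0.163) or footprint AP20187 1 (0.0713), and with DESeq2 size factors (0.0547), where 4 of the 7 passed. Lum passed with limma voom (0.026), without footprint AP20187 2 (0.0211) or footprint AP20187 3 (0.0314), and Fap without footprint AP20187 3 (0.0333). Footprints come from coding sequence and RNA reads from whole transcripts, so this ratio also depends on how much of a transcript is coding, and which part of a gene the footprint counts cover is not given in the sources used here.

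With AP20187 the ratios in libraries 1, 2 and 3 were 2.65, 2.85 and 1.08 for Dcn and 1.68, 3.07 and 0.618 for Lum. Mfap5 had 2.06, 3.16 and 0.519 and Fap 0.528, 2.08 and 0.0455. In library 3 these 4 genes stood far below the other AP20187 libraries, except that Fap was low in library 1 too. Fbn1 had 2.70, 2.75 and 2.11, Gsn 1.86, 2.07 and 1.78 and Pdgfrb 1.45, 2.09 and 1.48. Library 3 lay nearer to the other AP20187 libraries for these 3 genes, and for all 7 it was below the lowest vehicle library.

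**Figure D4:**
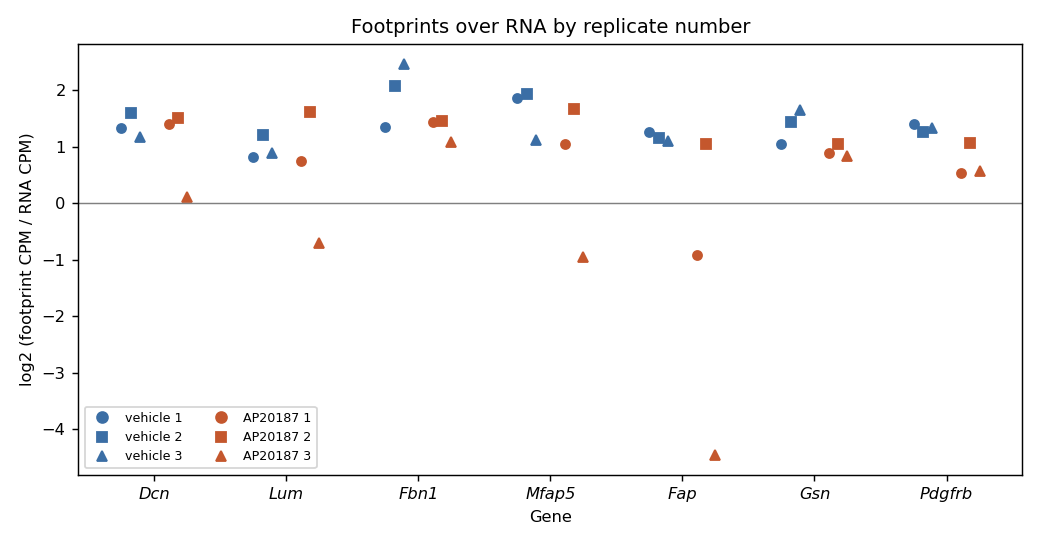
Log2 ratio of footprint CPM to RNA CPM for the 7 genes, paired by library number within a treatment, with vehicle in blue and AP20187 in orange. Vehicle points lie between 0.82 and 2.47, and AP20187 library 3 lies apart for Dcn, Lum, Mfap5 and Fap, at 0.11, -0.69, -0.95 and -4.46.

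Genes that work with the 7 were read from lists. For comparison, 13.9% of all genes tested were lower in RNA and 12.4% higher. Of the small leucine-rich proteoglycans 3 of 16 were measured, and Aspn, asporin, which also binds collagen, fell beside Dcn and Lum, by 1.64 ± 0.28 (adjusted p = 0.00867). Beside Fbn1 and Mfap5, 4 of the other microfibril and elastic fibre genes were measured, with a median of -0.21. Emilin1, a glycoprotein of elastic fibres, fell by 0.92 ± 0.19 (adjusted p = 0.0146), and the other 3 did not pass, Mfap1a at -0.38, Fbn2, the second fibrillin, at 0.29 and Ltbp3, which binds latent TGF-beta, at -0.04. Emilin1 no longer passed when vehicle library 1 or 3 or AP20187 library 1 was left out. Thus 1 of the 4 passed, and Fbn2 had means of 18.3 CPM in the vehicle and 22.4 CPM in the AP20187 libraries.

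No PDGF ligand and no other PDGF receptor was among the genes analysed here. Of 8 genes of PDGF signalling beside Pdgfrb 2 rose and 2 fell, with a median of -0.20, beside 12.4% higher and 13.9% lower over all genes. The kinase gene Src rose by 0.68 ± 0.14 and the regulatory PI3-kinase subunit gene Pik3r1 by 0.85 ± 0.25. The phosphatase gene Ptpn11 fell by 0.52 ± 0.16 (adjusted p = 0.0454) and the co-receptor gene Nrp1 by 0.71 ± 0.23 (0.0499866, just under the threshold). These signalling genes are expressed in most cell types. Without RNA vehicle 3 none of these 4 calls held. Without RNA vehicle 1, RNA AP20187 1 or RNA AP20187 3, 0 genes fell, without RNA vehicle 2 1 fell, and without RNA vehicle 1, RNA AP20187 1 or RNA AP20187 2 1 rose.

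Beside Fap, 8 prolyl and cell surface protease genes were measured, of which 3 fell and 1 rose, with a median of -0.14. Mme, the neprilysin gene, fell by 1.73 ± 0.36, Dpp4, the closest relative of Fap, by 1.46 ± 0.27 and the dipeptidyl peptidase gene Dpp7 by 0.82 ± 0.18. Anpep, the aminopeptidase N gene, rose by 1.63 ± 0.23. In the gelsolin family and among other actin severing and capping genes, 2 of 14 beside Gsn fell and 1 rose, with a median of -0.19. The share that fell was near the 13.9% lower over all genes, where 12.4% were higher. The relatives that fell were Avil, advillin, by 1.35 ± 0.30 and Vill, a villin-like gene, by 1.21 ± 0.25. Capg, a capping member of the same family, rose by 0.51 ± 0.14, and the capping subunit gene Capza2 was at -0.45 (adjusted p = 0.0535). The abundant severing genes Cfl1 and Dstn did not pass, at -0.18 and -0.20. Of 6 measured TGF-beta pathway genes 3 fell in RNA, the co-receptor gene Eng by 0.72 ± 0.15, Smad4 by 0.66 ± 0.15 and the matrix gene Tgfbi by 1.04 ± 0.31. Smad3 was at 0.40 (adjusted p = 0.0514), and the median was -0.61. In footprints 0 of the 6 passed, with a median of 0.01, where 1.6% of all genes were lower and 0.937% higher. Footprint changes of the 4 genes named were -1.14 for Eng, -0.03 for Smad4, -1.58 for Tgfbi and 0.20 for Smad3.

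Without RNA vehicle 3, 1 protease, 1 gelsolin family and 0 TGF-beta genes fell, and 0 gelsolin family genes rose. Without RNA AP20187 1, these were 2, 1, 1 and 0, and without RNA vehicle 1, 2, 0, 2 and 0. Among all genes tested 291 were lower and 247 higher without RNA vehicle 3, beside 1013 and 906 in the fit of all RNA libraries. Without RNA AP20187 2 or RNA AP20187 3, 0 gelsolin family genes rose, and without RNA vehicle 2, 2 did. Without RNA AP20187 3, 2 protease genes and 1 TGF-beta gene rose. The medians of the PDGF, protease and actin lists lay nearer to that over all genes, 0.01, than to that of the 7 genes, -1.45.

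The genes whose profile over the 12 libraries was most like that of the 7 were sought regardless of the lists. The search covered 6703 others with a mean of at least 5 CPM in both assays. Likeness was the root mean square difference between log2 CPM centred within each assay and the mean of the same values over the 7 genes. The nearest were Ablim1, an actin-binding LIM protein gene, at 0.245 log2 units, the fatty acid receptor gene Cd36, also on the adipocyte list, at 0.252, Glb1l at 0.253, the amine oxidase gene Aoc3 at 0.26, and Itih5, a hyaluronan-binding inter-alpha-trypsin inhibitor chain gene, at 0.268. Entpd2, an ectonucleotidase gene, followed at 0.269, the retinoic acid binding protein gene Crabp1 at 0.277 and the dynamin gene Dnm1 at 0.288. The median over all genes compared was 1.18. Of the 7 themselves Lum was nearest to their mean, at 0.183, and Fap farthest, at 0.753. Between single members the closest pairs were Lum with Mfap5, at 0.312, and Fbn1 with Pdgfrb, at 0.36, and the most distant was Fap with Pdgfrb, at 1.16, where the 1-count footprint value of Fap enters. In RNA alone the most distant pair was Dcn with Pdgfrb, at 1.02. These distances describe 12 libraries that share treatment groups and carry no test.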

How the data were processed

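RNA (stranded poly(A) kit) and ribosome footprints were sequenced from 12 libraries in 4 groups of 3, grouped by their titles. The authors deposited 1 table of unnormalized counts for 7318 gene symbols. The submitters' processing notes name HTSeq, STAR, Bowtie2, cutadapt and bcl2fastq 1.8.3, and the build mm10. Neither tool settings, nor the region counted, nor how genes were chosen for the table is stated there, so library totals are totals over listed genes and not sequencing depths.

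Genes passing filterByExpr entered edgeR 4.0.16 quasi-likelihood fits (R 4.3.3, TMM scaling) over the whole table, with Benjamini-Hochberg adjustment and a threshold of 0.05. RNA and footprint responses were fitted within their 6 libraries, and translational efficiency and the vehicle ratio of footprints to RNA in 1 model of assay, treatment and their interaction. SE is the log2 fold change over the square root of F. For ratios between genes, log2 CPM (prior count 0.5) entered an exact permutation test. The procedure was tested on simulated counts. Alternatives were DESeq2 1.42.0, limma 3.58.1 voom, DESeq2 size factors, no filter, a mean of at least 50 counts, replicate blocks and leaving out each library. Coordinates, lengths and transcripts came from GENCODE M21.

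The 7 genes, the 6 pathway lists and 8 marker lists, and the motifs were chosen with earlier results of these data known. Named beside the 7 were up to 4 genes a list by the smallest RNA p and the 8 genes of nearest profile. Named after their values were seen were Cfl1, Dstn, Des, Acta2, Tagln, Myh11, Cnn1, Mcam, Notch3, Abcc9, Sox10, Krt19, Thy1, S100a4 and Col1a2. Reads carried no stated molecular identifiers, so intervals and floors describe counting error alone.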

Additional observations from a re-analysis of the deposited data

How the results depend on the processing

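Ratios between genes were recomputed without each RNA library and not without footprint libraries. The count of RNA calls among the 7 genes stayed between 4 and 7 under all 12 alternatives, and that of the 15 fibroblast markers between 10 and 14. Over all genes tested, the number lower in RNA ran from 291 to 1269 under the same alternatives. Dcn, Lum, Mfap5 and Gsn kept their RNA call under each, and every RNA and footprint estimate of the 7 kept its sign. The footprint count was the least stable: 2 genes passed in the fit reported, 7 with DESeq2, 7 with the replicate block, and 0 to 5 when single libraries were left out. The count over all genes moved as well. There 113 were lower in the fit reported, 315 with DESeq2, 362 with the replicate block and 0 to 123 without single libraries. The cause was not tested. For the vehicle ratio of footprints to RNA, 5 genes passed, and 3 to 7 when single libraries were left out. Among all genes tested 1953 were higher in the fit reported and 1553 to 1972 without single libraries. Translational efficiency passed for 0 of the 7 genes under all 18 alternatives. Its estimate for Lum turned to 0.0020 with DESeq2 size factors and 0.0071 with DESeq2, and over left-out libraries the estimates ran from -0.92 to 0.42 for Dcn, -0.93 to 0.42 for Lum and -1.08 to 0.29 for Gsn.

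The labels do not say what a replicate number marks, and not every same-numbered pair reached a correlation of 0.1. Deviations of same-numbered libraries across treatments correlated at 0.16, -0.05 and -0.11 in RNA and at 0.08, 0.23 and 0.25 in footprints (Pearson r across genes), where each vehicle footprint library, but not AP20187 library 1, correlated best with its own number. With the replicate block 4 genes passed in RNA, where Fbn1 did not (adjusted p = 0.0811), and 7 in footprints. Among all genes tested 661 were lower in RNA and 362 in footprints with this block, beside 1013 and 113 without it. RNA and footprint libraries of the same number may share a cell pellet. They correlated at 0.06, 0.07 and 0.28 with vehicle and 0.40, 0.50 and 0.35 with AP20187. Pairs of unlike number lay between -0.40 and -0.07 with AP20187 and between -0.20 and 0.13 with vehicle. The highest of these vehicle values, of RNA library 2 with footprint library 1, exceeded those of the same-numbered vehicle pairs 1 and 2. With the treatment and number as a replicate block 6 genes passed for the vehicle ratio, Lum included (0.0337). Footprint depth limits Fap and Mfap5 most, at 1 and 14 counts in AP20187 library 3.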

Other observations

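Among the fibroblast markers that are not part of the 7, Thy1, a surface glycoprotein gene of fibroblasts and other cells, did not pass. It stood at 35.4 CPM in RNA with vehicle and 31.1 CPM with AP20187, a log2 change of -0.19 ± 0.17 (edgeR adjusted p = 0.441), and at 47.3 and 37.2 CPM in footprints. S100a4, a calcium-binding protein gene of fibroblasts and of other cells, fell by 1.63 ± 0.38 in RNA (adjusted p = 0.0195) and by 1.63 in footprints (adjusted p = 0.0441).

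The mean centred log2 CPM of the 7 genes ranked the AP20187 libraries alike in both assays, at -0.76, -0.47 and -1.01 in RNA libraries 1, 2 and 3 and at -0.97, -0.08 and -2.38 in footprint libraries 1, 2 and 3. With vehicle it was 0.58, 0.39 and 1.27 in RNA and 0.87, 0.92 and 1.64 in footprints, library 3 being highest in both.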
